A study of Mus musculus with 8 samples.

Results

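Glutathione reductase, glutathione peroxidases, peroxiredoxins, thioredoxin reductase, superoxide dismutases and catalase make up the 10 antioxidant enzyme genes described here: Gsr, Gpx1, Gpx4, Prdx1, Prdx2, Prdx6, Txnrd1, Sod1, Sod2 and Cat. They were chosen by name, and all 10 were found among the 11854 named genes of the deposited table. The cells were haematopoietic stem cells (HSCs), the self-renewing source of all blood lineages, sorted from the bone marrow of 4 wild type and 4 Nupr1-/- mice, all on a C57BL/6 background. Nupr1 encodes a small stress-induced chromatin protein. Each mouse gave 1 library of polyadenylated RNA, and no treatment, age or sex is given in the labels. The part of Nupr1 that was deleted, and the cells in which it was deleted, are not given in the sources used here.

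Superoxide dismutases turn superoxide into hydrogen peroxide, SOD1 mainly in the cytosol and SOD2 in the mitochondrial matrix. Catalase in peroxisomes, glutathione peroxidases and peroxiredoxins then break the peroxide down. The peroxidases are recharged by glutathione or thioredoxin, which glutathione reductase and thioredoxin reductase in turn reduce with electrons from NADPH. In HSCs low levels of reactive oxygen species are tied to quiescence, and many genes of these enzymes can be induced by the transcription factor NRF2 (Nfe2l2), which binds antioxidant response elements and is held in check by KEAP1 and CUL3.

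The libraries held 2296101 to 4769401 recovered reads, and each of the 10 genes exceeded 10 normalised reads in every library. Nupr1 was read in all 8 libraries, at 134 to 318 normalised reads in wild type and 119 to 201 in those labelled knockout. The groups overlapped (limma log2 difference -0.50, adjusted p = 0.433), so the targeted gene does not check the labels, and each difference below is between libraries as labelled. On the first principal component wild type library 2 lay far from the other 7. GC-rich transcripts were relatively higher in the libraries labelled knockout: across genes, which are not independent replicates, transcript GC content correlated with how far a gene's log2 level in a library lay from its average over libraries, at a Spearman coefficient of -0.313 to -0.141 in wild type and 0.155 to 0.307 in those labelled knockout.

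In the libraries labelled knockout 3 of the 10 enzyme genes changed. Gsr and Prdx1 fell, Gpx4 rose, and no call was made for the other 7 (limma, threshold of 0.05 on the p adjusted over 10989 genes). Among all genes tested 3.8% passed, 1.68% higher and 2.12% lower. For 6 of the 10 genes every value of one group lay above every value of the other, which was true of 11.7% of all genes tested, and 6 had an unadjusted limma p under 0.05, beside 19.7% of all genes. With the trend in transcript GC content and length removed from the values, none of these 3 passed: Gsr kept its log2 change (-1.91 and -1.98), while Prdx1 went from -0.77 to -0.31 and Gpx4 from 0.66 to 0.22. The 10 genes had a median log2 difference of -0.12, with 4 above 0 and 6 below, against 0.03 for all genes tested.

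The promoters are shown because many of these genes are known NRF2 targets and the groups differ in several of them. RefSeq promoters (GRCm38.p6, from 250 bases before to 50 bases after an annotated start) were found for 8 of the 10 genes (not for Gsr and Prdx6), in 13 windows because Gpx4 and Txnrd1 have several starts. The core letters TGACNNNGC were searched on both strands, and 12.4% of the 32851 promoter windows of the same length that were searched held them. The windows of 1 chromosome, on which none of the 10 genes lies, were left out of that search. Prdx1, Sod1 and one of the starts of Txnrd1 held 1 match each, and the windows of Gpx1, Gpx4, Prdx2, Sod2 and Cat held none. Capitals mark the match in the 3 windows that have one.
Prdx1, chr4:116685349-116685648, plus strand: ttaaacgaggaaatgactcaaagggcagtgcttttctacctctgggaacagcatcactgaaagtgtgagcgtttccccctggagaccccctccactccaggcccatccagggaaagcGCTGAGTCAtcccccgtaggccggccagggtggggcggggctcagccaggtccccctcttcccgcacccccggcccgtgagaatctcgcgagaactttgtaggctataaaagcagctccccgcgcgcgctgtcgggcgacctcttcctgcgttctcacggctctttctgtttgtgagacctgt
Txnrd1, second start, chr10:82858956-82859255, plus strand: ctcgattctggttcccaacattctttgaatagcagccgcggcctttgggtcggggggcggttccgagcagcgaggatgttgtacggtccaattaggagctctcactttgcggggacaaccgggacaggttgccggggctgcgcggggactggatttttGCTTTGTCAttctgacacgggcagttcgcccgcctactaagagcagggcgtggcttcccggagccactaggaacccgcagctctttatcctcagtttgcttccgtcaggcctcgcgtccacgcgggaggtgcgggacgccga
Sod1, chr16:90220512-90220811, plus strand: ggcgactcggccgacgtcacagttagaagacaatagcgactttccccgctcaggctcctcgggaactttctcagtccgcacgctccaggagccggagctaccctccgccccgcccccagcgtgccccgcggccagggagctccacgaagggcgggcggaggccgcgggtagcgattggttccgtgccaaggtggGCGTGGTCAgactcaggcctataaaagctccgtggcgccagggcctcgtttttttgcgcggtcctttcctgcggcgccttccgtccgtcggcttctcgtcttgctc
For comparison, the second Gpx4 window is shown. Gpx4 rose and its windows hold no match, as is also true of Gpx1, Prdx2, Sod2 and Cat, which did not pass.
Gpx4, chr10:80053315-80053614, plus strand: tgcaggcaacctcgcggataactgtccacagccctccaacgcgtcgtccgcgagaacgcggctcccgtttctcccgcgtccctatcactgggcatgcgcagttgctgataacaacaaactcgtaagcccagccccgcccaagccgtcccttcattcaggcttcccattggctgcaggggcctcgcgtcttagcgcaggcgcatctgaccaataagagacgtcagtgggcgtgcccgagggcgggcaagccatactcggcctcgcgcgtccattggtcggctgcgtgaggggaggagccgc
In each of the 3 genes the match lay on the minus strand, 133 bases before the start in Prdx1, 92 in Txnrd1 and 56 in Sod1. In Prdx1 it also held an AP-1 motif (TGANTCA, in 7.81% of the windows searched), and a second AP-1 motif lay at position -237. Of these 3 genes Prdx1 fell, Txnrd1 was lower without passing the test and Sod1 did not pass, as the next paragraphs give. A match describes the letters only, and a link between a match and a change was not tested.

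**Figure D1:**
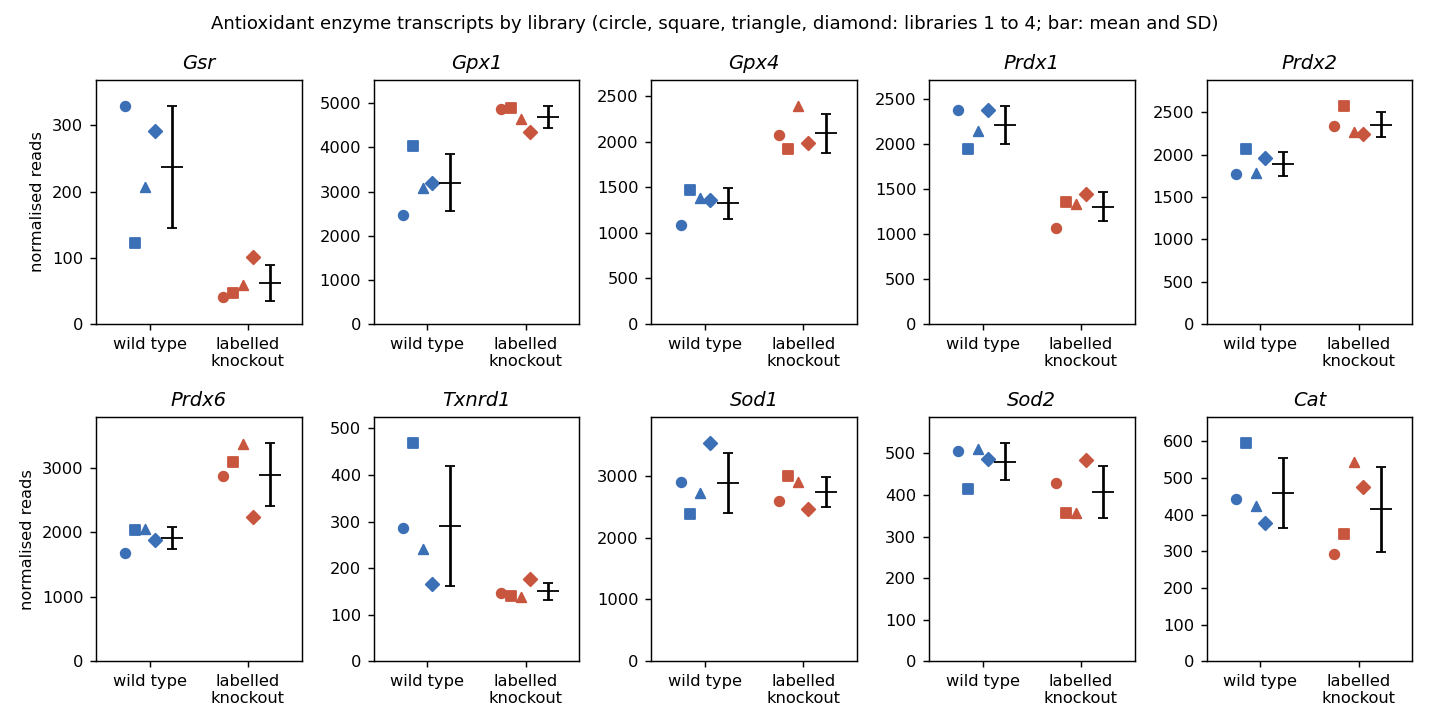
Normalised reads (vertical axes, each from 0) of the 10 enzyme genes in the 4 wild type (blue) and the 4 libraries labelled knockout (red), with the group mean and SD as bars. Gsr and Prdx1 lie lower, and Gpx1, Gpx4, Prdx2 and Prdx6 higher, in every library labelled knockout than in every wild type library.

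Gsr encodes glutathione reductase, the NADPH-dependent enzyme that returns oxidised glutathione to its reduced form. The gene (ENSMUSG00000031584.16) spans 33652523 to 33698163 of mm10 chromosome 8, plus strand, with exons free of overlap with other genes. Wild type libraries 1 to 4 held 329, 122, 207 and 291 normalised reads of Gsr, against 40.8, 47.4, 59.2 and 100.9 in knockout-labelled libraries 1 to 4. The groups did not overlap, and the nearest values were those of wild type library 2 and library 4 labelled knockout. Wild type averaged 237 ± 91.97 (SD, n = 4) and the other group 62.1 ± 26.99 (SD, n = 4), which is 26.2% of wild type. The log2 change was -1.91 ± 0.43 (SE), a 3.76-fold fall (limma adjusted p = 0.0235). In a bulk sample fewer cells with a transcript and less of it per cell cannot be told apart. Gsr had 28 to 109 recovered reads in the libraries labelled knockout, the fewest of the 10 genes, so its relative counting error is the largest of them. With 1 library left out the log2 change stayed between -2.19 and -1.72, and the adjusted p was under 0.05 in the fits lacking wild type library 2 (0.00372) or knockout-labelled library 4 (0.0296) and 0.0503 to 0.0842 without any other single library.

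Thioredoxin reductase 1 (Txnrd1), the selenium-containing enzyme that reduces cytosolic thioredoxin with NADPH, lay lower on average and varied widely in wild type. Wild type libraries 1 to 4 held 285, 468, 240.3 and 166 normalised reads of Txnrd1, against 147, 139.7, 138 and 176 in knockout-labelled libraries 1 to 4. Of the wild type libraries, only the fourth reached down into the knockout-labelled range. The mean of 290.03 ± 128 in wild type compared with 150.2 ± 17.7 (SD, n = 4 each), and the difference, -0.85 ± 0.33 (SE) on the log2 scale, missed the threshold (limma adjusted p = 0.165). Wild type library 2 had the highest Txnrd1 and the lowest Gsr of the wild type group. Without it the Txnrd1 log2 difference was -0.59.

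Prdx1 and Prdx2 encode the abundant cytosolic 2-cysteine peroxiredoxins, which depend on thioredoxin. Prdx1 (ENSMUSG00000028691.12, chromosome 4 from 116685544 to 116700822, plus strand) encodes 1 of the pair. The normalised reads of Prdx1 were 2376.4, 1941, 2141 and 2375.5 across wild type libraries 1 to 4, against 1070.4, 1355, 1332 and 1439 across knockout-labelled libraries 1 to 4. All 4 libraries labelled knockout lay below all 4 wild type libraries, and the spread within each group was small (CV 9.50% and 12.3%). The mean fell from 2208 ± 209.9 to 1299 ± 159 (SD, n = 4), a change of -0.77 ± 0.17 (SE) on the log2 scale (limma adjusted p = 0.0191). With 1 library left out the log2 change was -0.83 to -0.68. Prdx1 passed in 3 of these 8 fits, with the lowest adjusted p without wild type library 2 (0.00509) and the highest without library 1 labelled knockout (0.0778).

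Prdx2, the peroxiredoxin best known from red blood cells, lay on the other side of 0. Wild type libraries 1 to 4 held 1776, 2061, 1778 and 1957 normalised reads of Prdx2, against 2339, 2575, 2265 and 2239.8 in knockout-labelled libraries 1 to 4. The groups did not overlap, yet the difference, 0.32 ± 0.15 (SE) on the log2 scale, missed the threshold (limma adjusted p = 0.260). Exons of Prdx2 share 350 bases with Junb and Rnaseh2a on the opposite strand, and since the library kit does not mark the strand, reads there cannot be assigned. Rnaseh2a differed by a log2 of 0.60 (adjusted p = 0.219) and Junb by 0.28 (adjusted p = 0.670), and their part in the Prdx2 value was not tested.

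Within a library the ratio of Prdx1 to Prdx2 reads does not depend on the size factor. Wild type libraries 1 to 4 gave ratios of 1.34, 0.942, 1.20 and 1.21, and knockout-labelled libraries 1 to 4 gave 0.458, 0.526, 0.588 and 0.642. All 4 ratios of libraries labelled knockout lay below all 4 of wild type, and the geometric mean of the ratio was 2.12-fold lower. That separation was fixed beforehand, since Prdx1 was lower and Prdx2 higher in every library labelled knockout than in every wild type library. The exact permutation p of 0.0286 (two-sided) was therefore fixed too and adds no support. It is the smallest that 4 against 4 libraries can give, and is 0.114 adjusted over the 4 pairs compared. After the GC and length correction of each gene, the log2 difference of this ratio went from -1.08 to -0.54. The ratio of Gsr to Txnrd1 reads overlapped between the groups (0.261 to 1.75 in wild type, 0.277 to 0.574 in libraries labelled knockout, exact permutation p = 0.171), as did Gpx1 to Gpx4 (p = 0.400, exact permutation) and Sod1 to Sod2 (p = 0.343, exact permutation). The pairs were chosen after the values had been seen. The 2 genes of a pair differ in length and in GC content, so a ratio of reads is not a ratio of molecules.

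**Figure D2:**
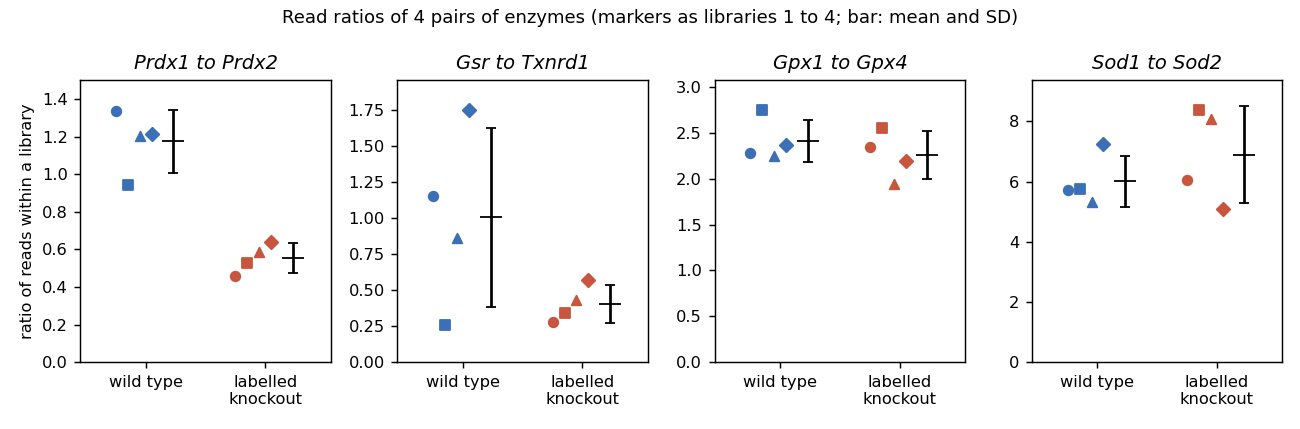
Ratio of recovered reads (vertical axes, each from 0) for 4 pairs of enzyme genes within each wild type library (blue) and each library labelled knockout (red), with the group mean and SD as bars. The ratio of Prdx1 to Prdx2 is the one of the 4 in which the groups do not overlap, which follows from the separate values of the 2 genes.

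Prdx6 encodes the 1-cysteine peroxiredoxin, which uses glutathione and also reduces lipid peroxides. Normalised reads of Prdx6 were 1684, 2035, 2052 and 1884 in wild type libraries 1 to 4, against 2882, 3099, 3378 and 2238 in knockout-labelled libraries 1 to 4. The groups did not overlap, with library 4 labelled knockout nearest to wild type. The means were 1914 ± 171 and 2899 ± 485 (SD, n = 4), and the log2 difference of 0.59 ± 0.17 (SE) missed the threshold (limma adjusted p = 0.0547). It passed in the fits lacking wild type library 2 (0.0274) or knockout-labelled library 4 (0.0429).

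Gpx4, the selenoenzyme that removes lipid hydroperoxides from membranes and protects cells from ferroptosis, rose. The gene (ENSMUSG00000075706.10) spans 80047166 to 80056439 of chromosome 10, plus strand. Wild type libraries 1 to 4 held 1083, 1470.2, 1378 and 1356 normalised reads of Gpx4, against 2077, 1914, 2391 and 1981 in knockout-labelled libraries 1 to 4. Every library labelled knockout exceeded every wild type library. The mean rose from 1322 ± 166 to 2091 ± 211 (SD, n = 4), by 0.66 ± 0.17 (SE) on the log2 scale or 1.59-fold (limma adjusted p = 0.0349). Of the 8 fits with 1 library left out it passed only in that without wild type library 2 (adjusted p = 0.0128, highest 0.107). Of the 50-base stretches of its longest protein-coding transcript, 61.7% occur in the transcripts of processed pseudogenes as well, so reads could have been shared with those copies. The share found in processed pseudogenes was 10.9% for Prdx1 and 23.1% for Sod1. For Prdx2 23.8% occurred in other genes, Junb and Rnaseh2a as well as pseudogenes. For Sod2 1.43% occurred in other genes (411 of them, protein-coding genes included), for Prdx6 0.299% in the protein-coding Prdx6b, and for Gsr, Gpx1, Txnrd1 and Cat 0%.

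Gpx1, the cytosolic and mitochondrial selenoenzyme that reduces hydrogen peroxide with glutathione, was near the threshold. Normalised reads of Gpx1 were 2470.4, 4036, 3089.8 and 3199 in wild type libraries 1 to 4, against 4874, 4889, 4636 and 4344 in knockout-labelled libraries 1 to 4. The groups did not overlap, with wild type library 2 nearest to the other group. The log2 difference was 0.57 ± 0.16 (SE, limma adjusted p = 0.0513) and ran from 0.45 to 0.69 with 1 library left out. It passed without wild type library 2 (0.00640).

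The dismutases and catalase did not pass. Sod1 had 2384 to 3522 normalised reads in wild type and 2458 to 2988 in libraries labelled knockout, a log2 difference of -0.07 ± 0.16 (SE, limma adjusted p = 0.857), with sign turned (0.04) without wild type library 4. Sod2 had 415 to 511 against 357 to 484 (log2 -0.24 ± 0.22, adjusted p = 0.578). Cat had 376 to 595 against 293 to 543 (log2 -0.17 ± 0.26, adjusted p = 0.757). All 3 overlapped between the groups. Within wild type, library 2 held the highest value of Gpx1, Gpx4, Prdx2, Txnrd1 and Cat and the lowest of Gsr, Prdx1, Sod1 and Sod2, which leaves Prdx6.

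**Figure D3:**
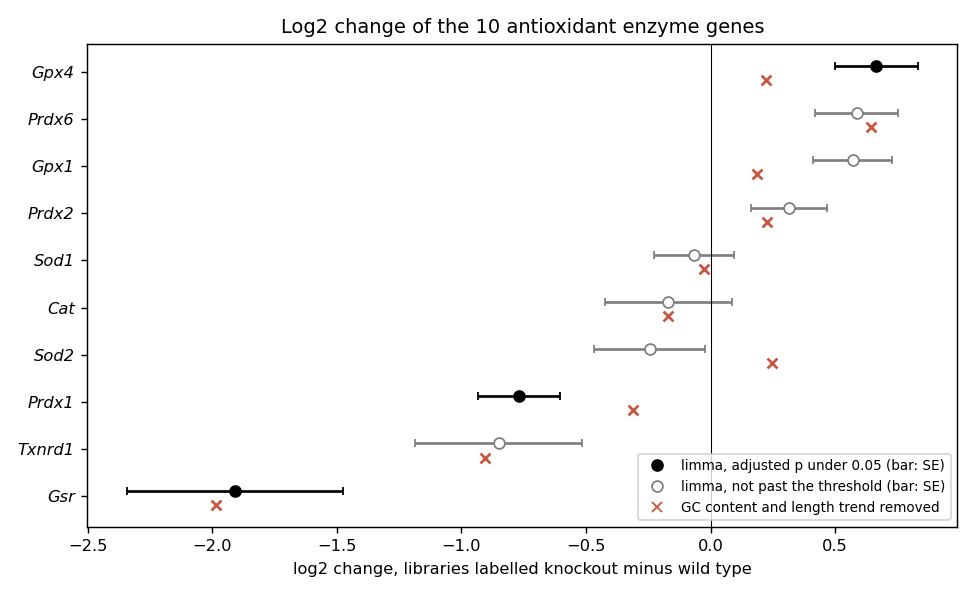
Log2 change (libraries labelled knockout minus wild type, horizontal axis) of the 10 enzyme genes with its SE, filled where the limma adjusted p was under 0.05, and the log2 change after the trend in GC content and transcript length was removed (crosses). Gsr lies at -1.91 and -1.98, while Prdx1, Gpx4 and Gpx1 move toward 0 and Sod2 changes side.

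Transcript GC content moved with the groups, and the enzyme genes differ in it. The longest protein-coding transcript of Prdx1 has 42.3% GC and that of Sod2 42.2%, while those of Gpx1 and Gpx4 have 57.2% and 60.2% and that of Gsr 50.1%. Across the transcriptome the median was 56.2% in genes that rose and 42.2% in genes that fell. Once the dependence on GC content and transcript length had been taken out of every library, 0 of the 10 genes passed (0.22% of all genes did). The adjusted p was then 0.463 for Prdx1, 0.660 for Gpx4 and 0.0586 for Gsr. The log2 difference of Gpx1 went from 0.57 to 0.19 (adjusted p = 0.700). Prdx6 stood at 0.59 before and 0.64 after (0.156) and Txnrd1 at -0.85 and -0.91 (0.288). Removed without wild type library 2, the trend left Gsr (log2 -2.22, adjusted p = 0.00747) and Prdx6 (0.74, adjusted p = 0.0315) past the threshold, beside 1.96% of all genes.

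**Figure D4:**
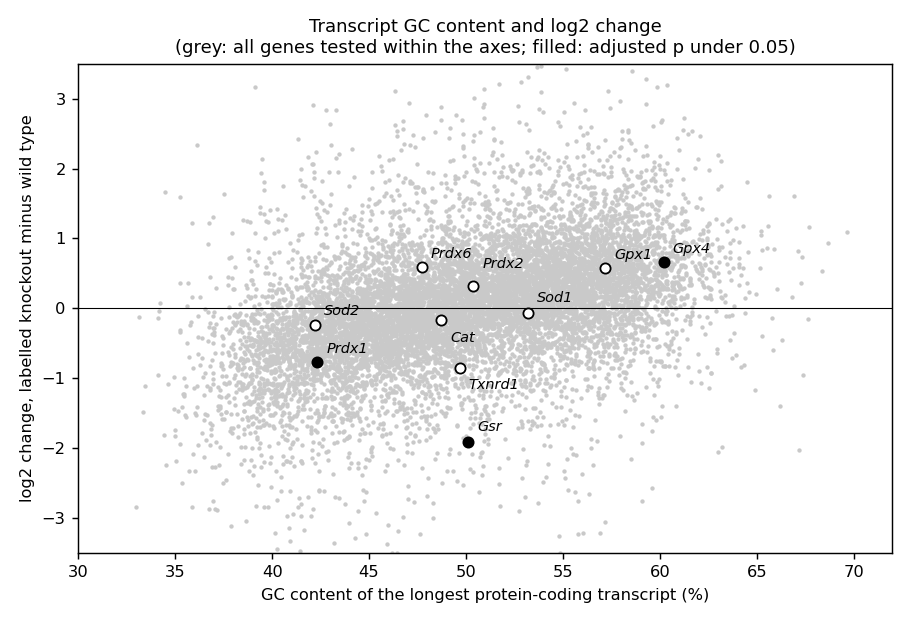
GC content of the longest protein-coding transcript (horizontal axis, %) and log2 change (vertical axis, libraries labelled knockout minus wild type) for all genes tested within the axes (grey) and the 10 enzyme genes (circles, filled where the adjusted p was under 0.05). Prdx1 at 42.3% and Gpx4 at 60.2% lie along the slope of the grey cloud, and Gsr at 50.1% lies far below its centre.

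The order of the transcripts' levels depended on the length they were divided by. Per kilobase of all annotated exons, Gpx1 was highest in wild type (2220 ± 447 normalised reads per kilobase, SD, n = 4), followed by Gpx4 (767 ± 96.6), Prdx1 (726 ± 68.97), Sod1 (726 ± 120.4), Prdx2 (621 ± 46.1), Prdx6 (398 ± 35.5), Cat (176 ± 36.2), Gsr (86.2 ± 33.4), Sod2 (47.9 ± 4.45) and Txnrd1 (40.9 ± 18.1). Gpx4, Prdx1, Sod1 and Prdx2 overlapped in range, as did Sod2 with both Gsr and Txnrd1. Per kilobase of the longest protein-coding transcript, Sod1 was highest (4493 ± 745), since 1 of its 2 annotated transcripts keeps an intron and makes the exon length larger. In the libraries labelled knockout, per kilobase of all exons, Prdx1 (427 ± 52.3) ranked 6 in place of 3 and Gsr (22.5 ± 9.80) lay next to last. Per kilobase of the longest protein-coding transcript, Prdx1 ranked 6 in place of 5 and Gsr ranked 10 in place of 8.

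Other genes of the antioxidant network were taken from 10 lists chosen by pathway with earlier results of these data known. Of their 132 genes tested, 4 passed (3.03%, beside 3.8% of all genes): Idh2 rose, and Cul3, Selt and Trp53 fell. The share is no higher than that of all genes, and the values that follow describe single genes. None of the 6 other peroxiredoxins and glutathione peroxidases passed (median log2 -0.39). The 2 of smallest p were Prdx4, the peroxiredoxin of the endoplasmic reticulum, with a log2 difference of -0.46 (adjusted p = 0.285), and Gpx7 with -0.78 (0.469). Of 9 genes of glutathione synthesis, breakdown and cystine uptake 0 passed (median 0.16). Ggct stood at -0.81 (adjusted p = 0.312) and Chac2, an enzyme that degrades glutathione, -2.46 at 1.25 to 30.5 normalised reads (adjusted p = 0.254). The thioredoxin and glutaredoxin system, with 17 genes tested, had 0 passing (median -0.02), with Txndc17 at -0.81 (adjusted p = 0.0994) and Glrx3 at -0.64 (0.149).

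Of 17 glutathione S-transferases 0 passed (median log2 0.16). Gsto1 had 593 ± 139 normalised reads in wild type and 1028 ± 209 in libraries labelled knockout (SD, n = 4), without overlap, and missed the threshold (log2 0.81, limma adjusted p = 0.0513). Gstm4 had a log2 difference of 1.70 (adjusted p = 0.108). Of 7 genes of superoxide production and copper delivery 0 passed (median 0.33), with Ccs, the chaperone that loads copper into SOD1, at 0.97 (adjusted p = 0.162) and Rac2 at 0.33 (0.321). Of 12 peroxisomal import genes and partners 0 passed (median 0.07), with Pex5, the receptor that carries catalase into peroxisomes, at -0.71 (0.233) and Pex6 at 0.66 (0.252).

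Among 19 regulators and further targets of NRF2, 1 fell and 18 did not pass (median log2 0.05). Cul3, the scaffold of the ubiquitin ligase that targets NRF2, fell from 639 ± 118 to 252 ± 109 normalised reads (SD, n = 4), with 544 to 810.2 in wild type and 96.2 to 329 in libraries labelled knockout (log2 -1.47 ± 0.33, SE, limma adjusted p = 0.0233). Cul3 passed in 3 of the 8 fits with 1 library left out, and its log2 change was -0.70 with the GC trend removed (adjusted p = 0.435). Nfe2l2 itself had 715 ± 156 against 492 ± 75.6 (log2 -0.53, adjusted p = 0.193) and Keap1 239 ± 100.8 against 257 ± 93.8 (log2 0.12, adjusted p = 0.884, and -0.38 with the GC trend removed).

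NADPH feeds both reductases, and of 19 genes of NADPH supply 1 rose and 18 did not pass (median log2 0.40, with 13 above 0). Idh2, the mitochondrial isocitrate dehydrogenase that makes NADPH, rose from 782 ± 85.5 to 1268 ± 214 normalised reads (SD, n = 4, log2 0.69 ± 0.19, SE, limma adjusted p = 0.0494). Idh2 passed only without wild type library 2 when 1 library was left out (0.0207), and its log2 change was 0.30 with the GC trend removed (adjusted p = 0.596). Rpe, of the pentose phosphate pathway, had a log2 difference of -1.78 (adjusted p = 0.0709).

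Gpx1, Gpx4 and Txnrd1 are selenoproteins, and of 16 genes of selenoprotein synthesis and other selenoproteins 1 fell and 15 did not pass (median log2 -0.10). Selt, a selenoprotein of the endoplasmic reticulum, fell from 636 ± 166 to 247 ± 68.4 normalised reads (SD, n = 4, log2 -1.36 ± 0.27, SE, limma adjusted p = 0.0145) and passed in 5 of the 8 fits with 1 library left out, with a log2 change of -0.67 with the GC trend removed (adjusted p = 0.309). Sepp1, which carries selenium, had a log2 difference of -0.57 (adjusted p = 0.0811). Of 10 genes through which FOXO factors and p53 act on oxidants, 1 fell and 9 did not pass (median log2 -0.17), among them Trp53inp1 (-1.69, adjusted p = 0.0655). Trp53, which encodes p53, fell from 548 ± 74.99 to 99.4 ± 28.2 normalised reads (SD, n = 4, log2 -2.49 ± 0.31, SE, limma adjusted p = 0.00155). It passed in 8 of 8 fits with 1 library left out and, alone among the listed genes, with the GC trend removed (log2 -2.80, adjusted p = 0.000131).

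Red cells, platelets and their precursors are rich in several of these enzymes, and the markers of those lineages were therefore read in the same libraries. Of 16 erythroid markers 10 were in the table and 7 were tested, of which 1 rose and 6 did not pass, where 1.68% of all genes rose. The 7 had a median log2 difference of 1.83, with 5 above 0, against 0.03 for all genes tested. The summed level of the 10 was 2639 to 5106 normalised reads in wild type and 4400.3 to 6491 in libraries labelled knockout, with overlap. Most of it came from Car2 (log2 0.68, adjusted p = 0.104), and Tfrc was next (log2 -0.79, adjusted p = 0.296). Klf1, the erythroid factor that rose, named after its values were seen, had 0 to 2.99 normalised reads in wild type and 24.9 to 85.7 in libraries labelled knockout, while the haemoglobin gene Hba-a1 had at most 10.2 in any library. Klf1 met the filter of 10 or more in 4 or more libraries only through the libraries labelled knockout. Its call and its place in the erythroid median were favoured by that filter and lend no support. Of 11 measured megakaryocyte and platelet markers 4 rose, Vwf (log2 0.82, adjusted p = 0.0360) and, named after their values were seen, Itga2b (1.76), Gp9 (2.55) and Pf4 (1.95), and 7 did not pass. Of the 11, 10 lay above 0 (median log2 2.14), and 6 did not overlap between the groups, beside 11.7% of all genes tested. The summed levels of the 11, 3779.9 to 4875 in wild type and 4534 to 5496 in libraries labelled knockout, overlapped. The part of these lineages in the enzyme values was not tested. Of 12 neutrophil markers 1 was in the table (Prtn3, 983 to 2908 in wild type and 847 to 1445 in libraries labelled knockout), and 2 of 11 monocyte and macrophage (summed 1632 to 3166 and 1419 to 2614), 3 of 9 B cell (395 to 1970 and 329 to 595) and 4 of 10 T and NK cell markers (202 to 642 and 204 to 522) were, with 0 passing. All 16 HSC markers were in the table, and 1 of 15 tested fell (Mllt3, log2 -0.74, named after its values were seen), where 2.12% of all genes fell. The 15 had a median log2 difference of -0.03, with 7 above 0. The summed level of the 16 was 9990 to 12762 in wild type and 8533 to 11178 in libraries labelled knockout, with overlap. Ly6a stood at log2 -0.36 (adjusted p = 0.369).

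Of the 10 enzymes, Gsr, Prdx1 and Gpx4 also passed in edgeR on the recovered reads (adjusted p = 0.0245, 0.0242 and 0.0416), beside 3.1% of all genes. DESeq2 on the same reads passed 5, these 3 with Gpx1 (0.0159) and Prdx6 (0.00863), beside 8.76% of all genes. The same 5 passed in limma-voom with sample weights (5.58% of all genes) and in limma without wild type library 2 (8.02% of all genes). With the replicate number as a block Gsr and Prdx1 passed, beside 2.52% of all genes. No fit that left out 1 of the other 3 wild type libraries, or library 1 or 2 labelled knockout, passed any of the 10. Those fits passed only 49 to 155 of the 10989 genes tested, against 418 with all 8 libraries. Among the 10 genes the direction of Gsr, Prdx1, Prdx2, Prdx6, Gpx1, Gpx4 and Txnrd1 held in each of 22 alternative fits.

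**Figure D5:**
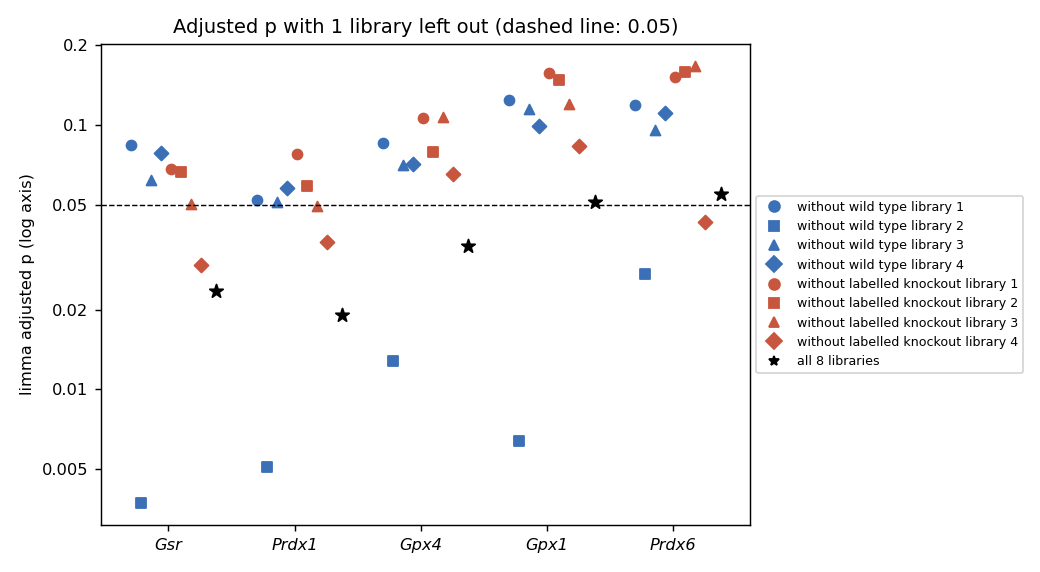
Limma adjusted p (vertical log axis, dashed line at 0.05) of Gsr, Prdx1, Gpx4, Gpx1 and Prdx6 with all 8 libraries (star) and with 1 library left out (blue, wild type; red, labelled knockout). Leaving out wild type library 2 gives the lowest value for each of the 5 genes.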

How the data were processed

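HSC RNA from 8 mice was reverse transcribed by a method cited in the labels, and libraries came from Nextera XT, per the labels' protocols. The submitters' processing notes name DESeq2, Subread, featureCounts, HISAT2, bcl2fastq and mm10, with no version or setting. The deposited values are a normalised signal: from the values, the authors divided each library's read counts by 1 size factor. In each library 100% of values were whole multiples of 1 step (tolerance 0.001), which gave back whole reads. For wild type library 3 the step is near 1, so this rests on values that are not whole numbers. Every row of the table has reads in at least 3 libraries, and 1 unnamed row (4.0e-04% of the summed values) was left out.

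After adding 1, values were log2 transformed. The filter required a value of 10 or more in 4 or more libraries, which kept 10989 genes and left out 865. The main test was limma 3.58.1 (R 4.3.3, trended and robust), two-sided, with Benjamini-Hochberg adjustment over the genes tested. Folds refer to that log2 scale, which understates changes of low genes. The recovered reads went into edgeR 4.0.16 and DESeq2 1.42.0. Exact permutation tests have 70 assignments. GENCODE M21 (mm10) held 11717 of the 11853 distinct symbols. Natural splines in GC content and length were fitted in each library over the 10890 tested genes with a transcript. The scripts were tested on simulated data. Named genes are the 10 enzymes, Nupr1, Trp53, Nfe2l2 and Keap1, from each pathway list the genes that passed (at most 4) or, with fewer than 2, those of the 2 smallest p, and from the cell type lists some of the 2 of highest mean. Outside this rule, Klf1, Hba-a1, Itga2b, Gp9, Pf4 and Mllt3 were named after their values were seen, and Junb, Rnaseh2a and Prdx6b because they share sequence with an enzyme gene. The genes, lists and settings were chosen with earlier results of these data known.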

Additional observations from a re-analysis of the deposited data

How the results depend on the processing

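Depth limits Gsr most, at 28 to 109 recovered reads in the libraries labelled knockout. Genes passing numbered 418 of all genes, 3 of the 10 enzymes and 4 of the pathway lists. These became 775, 5 and 10 with DESeq2, 5 enzymes and 9 listed genes with limma-voom, and 5 enzymes after adding 5 or 10 or with a filter of 50. With the GC trend removed they were 24, 0 and 1, alone or with the replicate block, and 37, 0 and 1 with the median over a gene's protein-coding transcripts, an alternative chosen after seeing the data. Without wild type library 2 as well they were 213, 2 and 1. With 1 library left out they ran from 49 (without library 2 labelled knockout) to 881 (without wild type library 2), 0 to 5 and 1 to 12. The replicate block alone gave 277 genes, 2 enzymes and 3 listed genes, and Gpx4 had adjusted p = 0.0622. Deviations of same-numbered libraries correlated at -0.06 to 0.01, and those of differently numbered libraries at -0.05 to 0.07. These values give no sign that the numbers pair the mice, but cannot settle it. Values that changed sign were those of Sod2 (0.25 with the GC trend removed, with the block and without wild type library 2), Cat (0.014 with the GC trend removed without wild type library 2), Keap1 (-0.38 with the GC trend removed, also with the block, -0.40 by the median transcript and -0.44 without wild type library 2), Rac2 (-0.019 by the median transcript), and, with 1 library left out, Sod1 (-0.15 to 0.036) and Keap1 (-0.10 to 0.37). The cause of these differences between settings was not tested. DESeq2 gave an adjusted p for 8850 of the 10989 genes and left the others undefined.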
